A study of Mus musculus with 9 samples.

Results

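Blood vessels of the mouse heart are wrapped by mural cells, and 10 genes that mark them were followed in RNA of the heart around birth. The genes were picked by symbol from the 48820 genes of the deposited table. The 5 smooth muscle genes were *Myh11*, *Tagln*, *Cnn1*, *Smtn* and *Mylk*, and the 5 pericyte genes were *Pdgfrb*, *Rgs5*, *Abcc9*, *Cspg4* and *Vtn*. RNA-seq had been made from 9 hearts of C57BL/6J mice, all of wild-type genotype, untreated and labelled male. There were 3 hearts, labelled as biological replicates, at each of embryonic day 18.5 (E18.5d), postnatal day 1 (P1d) and postnatal day 7 (P7d). Values are FPKM (fragments divided by transcript length in kilobases and by mapped fragments in units of 1e6), a scale on which levels can be set side by side between genes because it divides by length. The question was how the mural cell genes change from the late fetal heart through birth to the first postnatal week.

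Depth, read from the steps between low FPKM values, was 25.6 to 37.8 times 1e6 fragments at E18.5d, 27.8 to 29.9 at P1d and 36.5 to 45.2 at P7d. An estimated 1564 fragments or more stood behind every value of the members other than *Cnn1*, with at least 520, and *Vtn*, with 36 to 938. At 36 fragments, the counting error alone is 16.7%. Several hearts stood apart from their group in ways that touch the members. The airway gene *Scgb3a2* was at 53.2 and 127 FPKM in E18.5d replicates 1 and 2 and at 179 FPKM in P1d replicate 1, while the other 6 hearts had 1.00 FPKM or less. The alveolar surfactant gene *Sftpc* was at most at 0.44 FPKM in any heart. The summed level of 10 liver markers was 126 FPKM in P1d replicate 2, with 9 of them at 1 FPKM or above, and 46.4 and 62.6 FPKM in the other P1d hearts. *Xist*, which coats the inactive X, reached 58.0 to 97.0 FPKM in 4 hearts (E18.5d replicates 1 and 3, P7d replicates 2 and 3), where all 4 Y-linked genes examined were at 0, so these hearts went against their label as male. The other 5 hearts had *Xist* at 0.11 FPKM or less.

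Mural cells share the outer surface of vessels between them. Smooth muscle cells form the contractile coat of arteries and arterioles, where calmodulin activates myosin light chain kinase, the kinase phosphorylates the regulatory light chain, and smooth muscle myosin pulls on actin. Pericytes sit singly on capillaries and small venules, inside the basement membrane that they share with the endothelium. Both lineages are recruited when endothelial cells release PDGF-B and mural progenitors answer through the receptor PDGFRβ, and in the heart many arise from the epicardium and spread along the coronary tree. Several of the genes are not confined to vessels: *Abcc9* also encodes the sulfonylurea receptor of cardiomyocyte ATP-sensitive potassium channels, and *Tagln* is switched on for a time in embryonic heart muscle. In bulk heart RNA, fewer cells of a type and less RNA per cell cannot be told apart.

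The 10 genes did not move as a block. Over the whole interval from E18.5d to P7d, *Vtn*, *Rgs5*, *Smtn*, *Pdgfrb* and *Abcc9* rose, *Cnn1* and *Tagln* fell, and *Myh11*, *Mylk* and *Cspg4* did not pass the test. So 4 of 5 pericyte genes were higher in the P7d heart, while the 5 smooth muscle genes divided into 1 that was higher, 2 that were lower and 2 called in neither direction. All 10 genes had a mean of at least 1 FPKM and were among the 13618 genes tested with limma on log2(FPKM + 1), with Benjamini-Hochberg adjustment over those genes and a threshold of 0.05. Between E18.5d and P1d, 3 members were called higher, where 18.4% of all genes tested were, and 3 were called lower, where 27.6% of all genes were. Between P1d and P7d, 6 members were higher against 15.5% of all genes, and 2 were lower against 28.6%. Between E18.5d and P7d, 5 members were higher against 12.5% of all genes, and 2 were lower against 36.9%. The median log2 change of the members was 0.10, 0.25 and 0.46 in these comparisons, beside -0.06, -0.09 and -0.17 over all genes tested. The 3 comparisons share hearts, so their counts are not independent of each other.

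**Figure D1:**
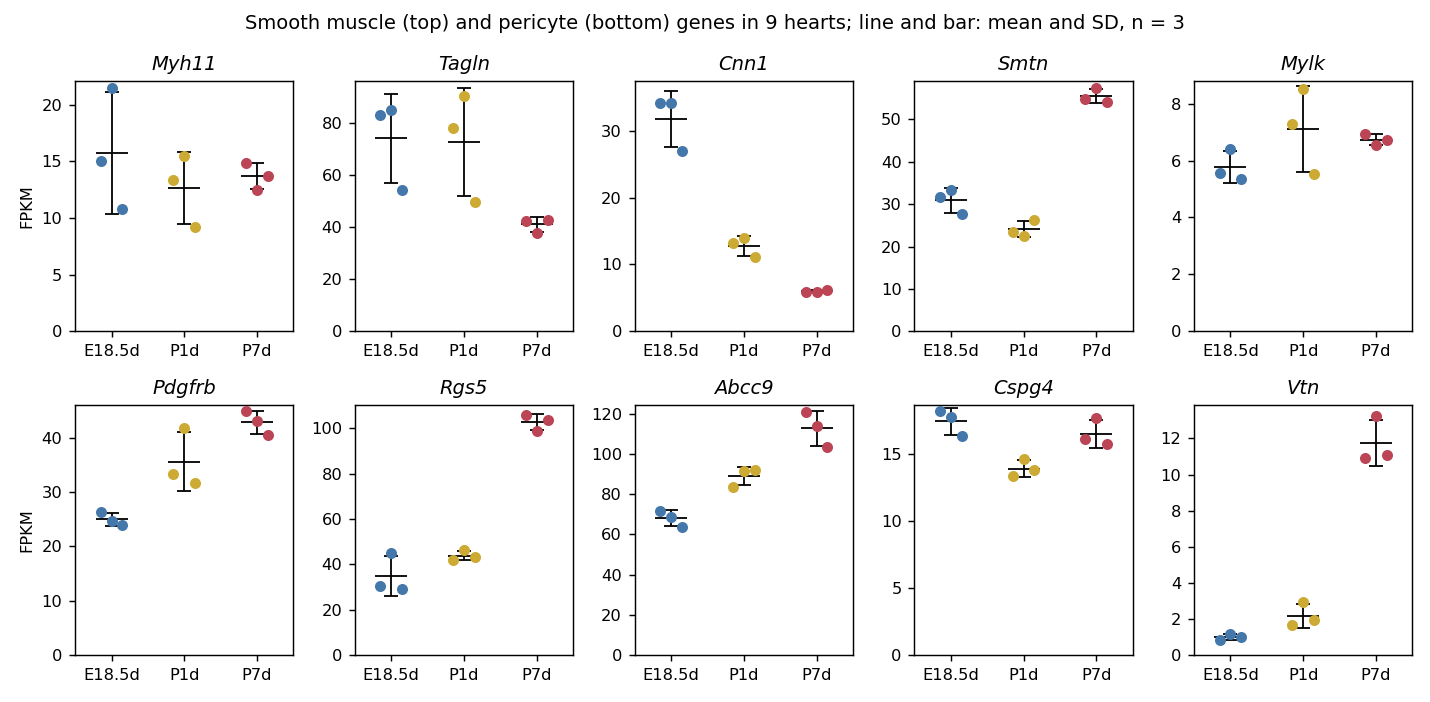
FPKM of each of the 10 genes in every heart (points, 3 per stage) at E18.5d, P1d and P7d, with the stage mean (wide line) and SD (bar), each panel starting at 0 on its own scale. *Cnn1* steps down at each stage, *Smtn*, *Rgs5* and *Vtn* have all 3 P7d hearts far above the rest, and *Myh11* and *Mylk* overlap between neighbouring stages.

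*Cnn1*, which encodes calponin 1, an actin-binding protein that restrains the myosin ATPase of differentiated smooth muscle, had the largest fall among the members. Its 250 bases before the RefSeq start are shown up to the first annotated exon base of GENCODE M21, 213 bases on the plus strand of GRCm38.p6, chr9:22099003-22099215, since it and *Vtn* mark the 2 ends of the range of change.
Cnn1: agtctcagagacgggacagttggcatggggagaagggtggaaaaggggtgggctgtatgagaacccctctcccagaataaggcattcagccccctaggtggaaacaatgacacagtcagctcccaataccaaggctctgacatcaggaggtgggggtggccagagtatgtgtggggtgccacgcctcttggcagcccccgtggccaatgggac
No capitals appear because none of the 3 motifs searched (given with *Vtn*) lies in this window. *Cnn1* stood at 34.2, 34.1 and 27.0 FPKM in the 3 E18.5d hearts, at 13.17, 13.99 and 11.06 FPKM in the 3 P1d hearts, and at 5.90, 5.90 and 6.24 FPKM in the 3 P7d hearts. Every heart of a stage lay below every heart of the stage before, and the P7d hearts differed least among themselves. The log2 change was -1.25 ± 0.11 (SE) from E18.5d to P1d (limma, adjusted p = 2.74e-05), when the mean FPKM fell by 59.9%. It was -0.96 ± 0.11 from P1d to P7d (adjusted p = 0.000154), and over the whole interval the mean fell by 81.1%, from 31.8 ± 4.15 to 6.01 ± 0.20 FPKM (SD, n = 3; log2 change -2.22, adjusted p = 8.27e-07). The 3 calls held under every alternative run except a required absolute log2 change of 1, which the second step misses. Without the 3 hearts with airway RNA, which leaves 1 heart at E18.5d, the log2 changes were -1.06, -0.94 and -1.997.

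*Tagln* encodes transgelin, also called SM22α, an actin-bundling protein and an early marker of the smooth muscle lineage. It lies on the minus strand of chromosome 9 at 45929619-45936058 (GRCm38). The E18.5d hearts had 83.4, 85.0 and 54.4 FPKM, the P1d hearts 78.1, 90.4 and 49.9 FPKM, and the P7d hearts 42.6, 38.0 and 42.9 FPKM. The third replicate was lowest at E18.5d and at P1d, those groups overlapped fully, and all 3 P7d hearts lay below all 6 earlier hearts. Accordingly the change at birth was within the spread (log2 change -0.04 ± 0.22, adjusted p = 0.892), and the level then fell by 43.5% of the mean between P1d and P7d (log2 change -0.77 ± 0.22, limma adjusted p = 0.0193). Across the whole interval it fell by 0.81 on the log2 scale (adjusted p = 0.0133). Without the 3 hearts with airway RNA, which leaves 1 heart at E18.5d, the change from E18.5d to P7d shrank to -0.40. The change from P1d to P7d was then -0.70, near its full size, and missed the threshold with fewer hearts. Of the 1988 exonic bases of *Tagln*, 1349 (67.9%) overlap genes on the opposite strand, mainly the antisense gene *Gm48529*, and the sources used here do not state whether strand was used in counting.

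*Smtn* encodes smoothelin, a cytoskeletal protein found in fully contractile smooth muscle. It moved opposite to *Cnn1* after birth. The 3 E18.5d hearts had 31.7, 33.3 and 27.6 FPKM, the 3 P1d hearts 23.5, 22.6 and 26.2 FPKM, and the 3 P7d hearts 54.8, 57.3 and 54.2 FPKM. The P1d hearts were the lowest and the P7d hearts the highest, with no overlap between any 2 stages. The dip at P1d was -0.35 ± 0.08 on the log2 scale (limma, adjusted p = 0.00682). Without the 3 hearts with airway RNA, which leaves 1 heart at E18.5d, it shrank to -0.18 and lost its call. The rise from P1d to P7d was 1.17 ± 0.08 (adjusted p = 1.42e-05), a 2.30-fold increase of the mean, and it was called under every alternative run. *Smtn* at 3517523-3540612 of chromosome 11 (minus strand) shares 714 of its 4380 exonic bases with the opposite-strand transcript *Gm11946*, whose mean was 1.58 FPKM.

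*Myh11* encodes the smooth muscle myosin heavy chain, the motor protein most restricted to this cell type. It was at 14.98, 21.46 and 10.76 FPKM in the E18.5d hearts, at 13.4, 15.4 and 9.16 FPKM in the P1d hearts and at 14.8, 12.5 and 13.7 FPKM in the P7d hearts. The 3 groups overlapped, and the 2 lowest values were the third replicates of E18.5d and P1d. The change from E18.5d to P7d was -0.14 with a 95% interval of -0.66 to 0.38 (limma, adjusted p = 0.636), so changes of either sign within those bounds were not excluded. The sign turned with the scaling of the columns (0.03 under median of ratios). *Mylk*, for myosin light chain kinase, was at 5.57, 6.41 and 5.35 FPKM in the E18.5d hearts, at 7.30, 8.53 and 5.53 FPKM in the P1d hearts and at 6.93, 6.54 and 6.73 FPKM in the P7d hearts. The P7d hearts all lay above the E18.5d hearts by a small margin and the P1d hearts spread over both. *Mylk* was called in no comparison, with a log2 change of 0.19 from E18.5d to P7d (interval -0.09 to 0.48, adjusted p = 0.233). The step to P1d was 0.25 (adjusted p = 0.141), and without P1d replicate 3 it was 0.40 and was called (adjusted p = 0.00967). From E18.5d to P7d *Mylk* was called higher once the columns were rescaled by median of ratios, by quantiles or to an equal sum of protein-coding nuclear genes (log2 change 0.34 to 0.35, adjusted p = 0.0350 to 0.0442).

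**Figure D2:**
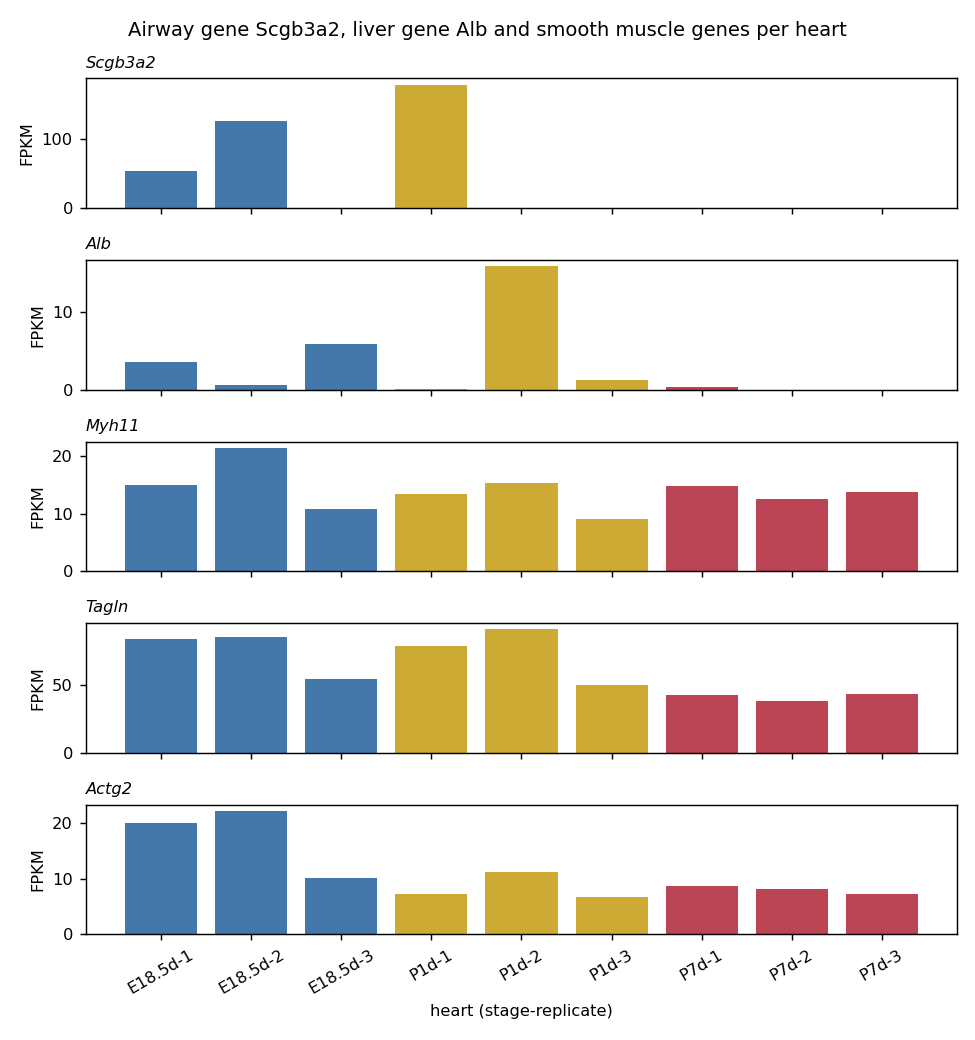
FPKM per heart (bars from 0, named by stage and replicate) of the airway gene *Scgb3a2*, the liver gene *Alb* and the smooth muscle genes *Myh11*, *Tagln* and *Actg2*. *Scgb3a2* is high in E18.5d replicates 1 and 2 and P1d replicate 1, while the highest *Tagln* is in P1d replicate 2, where *Scgb3a2* was 0.16 FPKM and *Alb* 15.9 FPKM.

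The spread of *Myh11* and *Tagln* went beside airway RNA at E18.5d and was ordered otherwise at P1d. At E18.5d the 2 hearts with *Scgb3a2* had 14.98 and 21.46 FPKM of *Myh11* and the heart without it 10.8 FPKM. The enteric-type smooth muscle actin *Actg2* ran the same way there, with 20.1 and 22.3 FPKM against 10.2 FPKM. The liver gene *Alb* did not, at 3.60, 0.64 and 5.86 FPKM in E18.5d replicates 1, 2 and 3. At P1d the order was different, because P1d replicate 2, with *Scgb3a2* at 0.16 FPKM, had the most *Tagln* (90.4 FPKM) and *Myh11* (15.4 FPKM), and the heart with the most *Scgb3a2* came next. *Actg2* had this order at P1d too, at 7.23, 11.33 and 6.83 FPKM in replicates 1, 2 and 3. Of 8 lung and airway markers the summed level was 1.76 to 138 FPKM at E18.5d, 1.55 to 223 FPKM at P1d and 0.14 to 0.61 FPKM at P7d. The part of airway tissue in these values was not tested.

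*Vtn* encodes vitronectin, an adhesive glycoprotein that binds αv integrins and that pericytes secrete, and it rose more than any other member. Its upstream sequence is given from 250 to 30 bases before the RefSeq start, where the first GENCODE exon begins, as 221 bases on the plus strand of GRCm38.p6, chr11:78498870-78499090. The capitals mark the RBPJ motif TGGGAA, the core bound by the Notch effector RBPJ, together with the MCAT motif CATTCC of TEAD factors, read on the opposite strand and overlapping it.
Vtn: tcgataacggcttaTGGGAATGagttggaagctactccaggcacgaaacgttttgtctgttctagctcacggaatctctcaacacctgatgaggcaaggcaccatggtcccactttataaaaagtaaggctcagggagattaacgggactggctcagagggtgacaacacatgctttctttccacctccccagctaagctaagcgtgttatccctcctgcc
Promoter windows of 300 bases (250 before to 50 after the start) were in the RefSeq table for 7 of the 10 members, not for *Myh11*, *Tagln* and *Pdgfrb*. For *Smtn* and *Mylk* the RefSeq start used is internal, and the whole window lies inside the GENCODE gene. On both strands, CATTCC was in 4 of the 7 (*Smtn*, *Mylk*, *Abcc9* and *Vtn*) and in 14.7% of all 32851 promoters of this length. TGGGAA was in 3 of the 7 (*Smtn*, *Abcc9* and *Vtn*) and in 25.6% of all promoters, and the CArG box bound by serum response factor was in 0 of the 7 and in 1.63% of all. A match is only a match of letters, and its absence says only that the letters are not in this window.

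*Vtn* was low before birth. The E18.5d hearts had 0.81, 1.16 and 0.97 FPKM, the P1d hearts 1.64, 2.92 and 1.93 FPKM and the P7d hearts 10.9, 13.2 and 11.1 FPKM. No 2 stages overlapped, and the lowest P7d heart was above the highest P1d heart by several times the spread of either group. The mean was 12.0-fold higher at P7d than at E18.5d, and on the log2(FPKM + 1) scale, which understates the change of a gene this low, the changes were 0.66 ± 0.15 to P1d (limma, adjusted p = 0.00588) and a further 2.03 ± 0.15 to P7d (adjusted p = 1.92e-05). Without the 3 hearts with airway RNA, which leaves 1 heart at E18.5d, the first step was larger, 0.78, and missed the threshold. Liver is the main source of plasma vitronectin, and the P1d heart with the most *Vtn* was replicate 2, the heart with the highest liver markers, whose part in that value was not tested. In the P7d hearts, where *Vtn* was highest, *Alb* was at 0.01 to 0.38 FPKM. Their summed liver markers were at 20.96 to 23.19 FPKM, below those of every earlier heart. Most of that sum was *Trf* (12.55 to 13.78 FPKM) and *Ahsg* (4.92 to 5.09 FPKM). The part of liver RNA in the P7d values was not tested.

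*Rgs5* encodes a GTPase-activating protein that shortens signalling from Gq- and Gi-coupled receptors and is among the most specific pericyte transcripts. It was at 30.5, 45.1 and 28.9 FPKM in the E18.5d hearts, at 42.0, 46.2 and 43.3 FPKM in the P1d hearts and at 106, 98.9 and 104 FPKM in the P7d hearts (chromosome 1, 169655501-169695813, plus strand). E18.5d replicate 2 reached the P1d range, so these groups overlapped, and all 3 P7d hearts lay far above every earlier heart. The rise to P7d was 1.56 ± 0.14 on the log2 scale from E18.5d (limma, adjusted p = 2.84e-05) and 1.21 ± 0.14 from P1d (adjusted p = 0.00018). The change from E18.5d to P1d, 0.35 ± 0.14, missed the threshold (adjusted p = 0.0654) and was called without E18.5d replicate 2 (0.55, adjusted p = 0.000644). With a covariate for *Xist* above 1 FPKM in the fit this change shrank to 0.13, its lowest value among the alternatives.

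*Abcc9* encodes SUR2, the regulatory subunit of the ATP-sensitive potassium channel, which pairs with Kir6.1 from *Kcnj8* in mural cells and with Kir6.2 from *Kcnj11* in heart muscle. The E18.5d hearts had 71.7, 68.8 and 63.6 FPKM, the P1d hearts 83.8, 91.4 and 91.9 FPKM and the P7d hearts 121, 114 and 103 FPKM (chromosome 6, 142587862-142702315, minus strand). The level stepped up at each stage with no overlap. It rose by 0.38 ± 0.07 on the log2 scale to P1d (limma, adjusted p = 0.00254) and by 0.34 ± 0.07 from P1d to P7d (adjusted p = 0.00567). The first step fell to 0.21 with adjusted p = 0.0811 with columns brought to equal sums.

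*Pdgfrb* on chromosome 18 encodes PDGFRβ, the receptor through which PDGF-B recruits mural cells, and it too is expressed by both mural lineages and by some fibroblasts. Its levels were 26.3, 24.7 and 23.9 FPKM at E18.5d, 33.2, 41.8 and 31.7 FPKM at P1d and 44.8, 43.1 and 40.6 FPKM at P7d. The E18.5d hearts lay below all others, and P1d replicate 2 lay within the range of the P7d hearts. Between E18.5d and P7d *Pdgfrb* rose by 0.75 ± 0.10 on the log2 scale (limma, adjusted p = 0.000247), of which 0.49 came by P1d (adjusted p = 0.00317). The step from P1d to P7d, 0.27 ± 0.10, was just past the threshold (adjusted p = 0.0488) and missed it on leaving out any heart other than P1d replicate 2 (adjusted p = 0.0610 to 0.143). Without the 3 hearts with airway RNA, which leaves 1 heart at E18.5d, the step to P1d was larger, 0.59, and missed the threshold.

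*Cspg4*, the gene of the proteoglycan NG2 on the surface of pericytes and of developing arterial smooth muscle, had a shallow dip in FPKM in place of a rise. It stood at 18.2, 17.7 and 16.3 FPKM at E18.5d, at 13.3, 14.6 and 13.8 FPKM at P1d and at 16.1, 17.6 and 15.7 FPKM at P7d. All 3 P1d hearts were below all 6 other hearts, whose ranges overlapped. The log2 change was -0.31 ± 0.07 to P1d (limma, adjusted p = 0.00614), 0.23 ± 0.07 from P1d to P7d (adjusted p = 0.0246) and -0.08 from E18.5d to P7d, with a 95% interval of -0.23 to 0.08. Neither step was called without the 3 hearts with airway RNA, where the first shrank to -0.19 (adjusted p = 0.276) and the second was 0.20 (adjusted p = 0.121), and the last change turned to 0.10 under median of ratios.

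**Figure D3:**
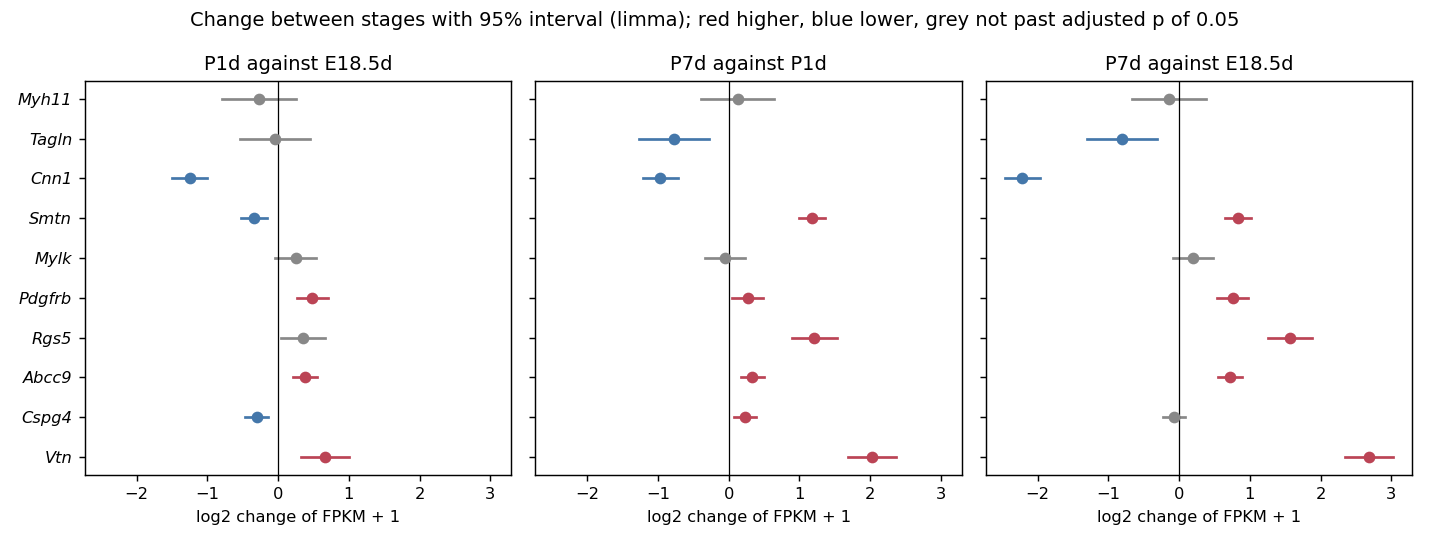
Log2 change of FPKM + 1 (points) with its 95% interval (lines) from limma for each gene, in panels for P1d against E18.5d, P7d against P1d and P7d against E18.5d; red is higher, blue lower and grey not past the threshold. *Cnn1* is blue in all 3 panels, *Pdgfrb*, *Abcc9* and *Vtn* are red in all 3, and *Smtn* changes from blue to red.

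The order of the members by level changed with these shifts. At E18.5d *Tagln* (74.2 ± 17.2 FPKM) and *Abcc9* (68.0 ± 4.09 FPKM, SD, n = 3) led, with overlapping hearts, followed by *Rgs5*, *Cnn1* and *Smtn* between 30.9 and 34.8 FPKM, where neighbours also overlapped. *Vtn* was last at 0.98 FPKM. At P7d *Abcc9* (113 ± 8.83 FPKM) and *Rgs5* (103 ± 3.57 FPKM) led, overlapping with each other and apart from *Smtn* at 55.5 ± 1.64 FPKM. *Cnn1* had become the lowest of the 10 at 6.01 FPKM, under *Mylk* at 6.73 FPKM and with no overlap. Over the 10 genes the median coefficient of variation between hearts was 5.61% for P7d, against 11.4% for E18.5d and 13.6% for P1d.

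The FPKM columns sum to different totals, and the scale chosen shifts all genes together. From E18.5d to P7d the median log2 change of all genes tested was -0.17 as deposited, -0.02 under median of ratios and -0.21 at equal sums, and the calls over all genes were 1706 higher and 5025 lower, 2907 and 2838, and 1266 and 4453. From E18.5d to P1d they were 2505 higher and 3755 lower as deposited, 3155 and 3102 under median of ratios, and 1173 and 4706 at equal sums. From P1d to P7d the calls were 2112 and 3901 as deposited, 2987 and 2698 under median of ratios and 2200 and 1727 at equal sums. Over the whole interval the members' counts moved less. Between E18.5d and P7d, 5 members higher and 2 lower became 6 and 2 under median of ratios, with *Mylk* added, and were again 5 and 2 at equal sums. From E18.5d to P1d, 5 members were higher under quantiles in place of 3, and 3206 of all genes in place of 2505. With a covariate for *Xist*, which takes up the hearts that went against their label, 3 member calls were lost, all from P1d to P7d: *Tagln* (log2 change -0.63, adjusted p = 0.115), *Pdgfrb* (0.30, adjusted p = 0.114) and *Cspg4* (0.23, adjusted p = 0.101).

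**Figure D4:**
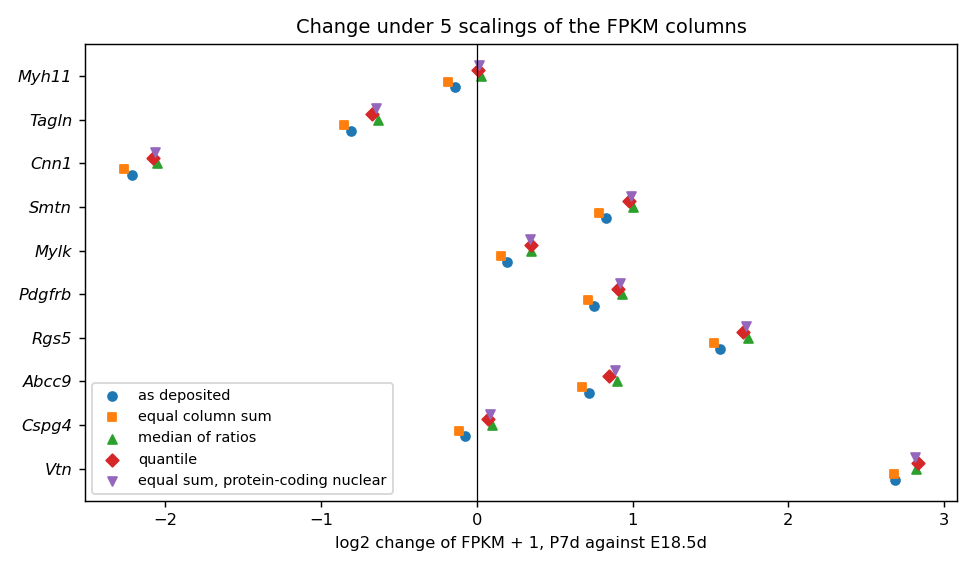
Log2 change of each gene from E18.5d to P7d under 5 scalings of the FPKM columns (symbols). The scalings move every gene by a like amount, so that *Myh11* and *Cspg4* fall on either side of 0 while the other 8 genes stay on their side.

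A ratio within a heart does not depend on that scale, so each member was also divided by the geometric mean of 10 endothelial markers, a level that ran from 35.6 to 47.2 FPKM over the 9 hearts. Against the endothelium, *Vtn* rose from a mean ratio of 0.027 ± 0.005 at E18.5d to 0.252 ± 0.032 at P7d (SD, n = 3), a 9.45-fold difference. *Rgs5* rose from 0.945 to 2.20, *Smtn* from 0.839 to 1.19, *Pdgfrb* from 0.679 to 0.918 and *Abcc9* from 1.85 to 2.42, all with no overlap between hearts of the 2 stages. *Cnn1* went from 0.862 ± 0.090 to 0.129 ± 0.003 and *Tagln* from 1.53 to 2.28 in the E18.5d hearts to 0.827 to 0.909 in the P7d hearts, again without overlap. *Cspg4*, whose FPKM at E18.5d and P7d overlapped, was apart on this measure, at 0.473 ± 0.013 and 0.353 ± 0.027. Its P1d ratio was 0.330 ± 0.010. Between P1d and P7d the ratios of *Cspg4*, *Pdgfrb* and *Abcc9* overlapped. *Myh11* overlapped between E18.5d and P7d (0.426 and 0.293). *Mylk* went from 0.157 ± 0.0132 to 0.144 ± 0.0031, a small move opposite in sign to its FPKM. Its hearts all but touched, with the lowest at 0.1483 for E18.5d and the highest at 0.1479 for P7d. No test was run on the ratios.

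**Figure D5:**
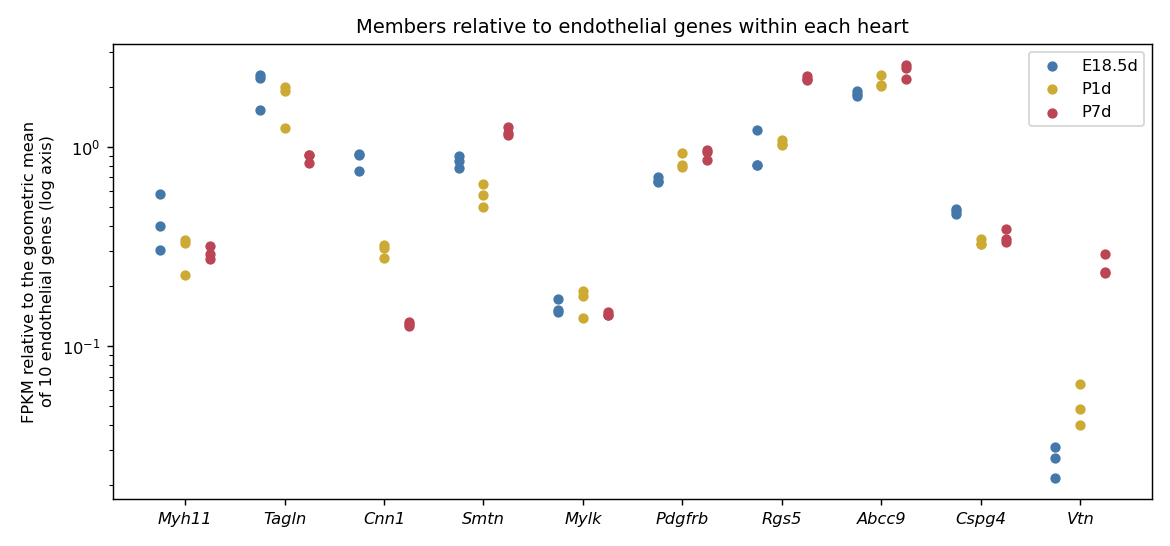
FPKM of each gene divided by the geometric mean of 10 endothelial markers in the same heart (log axis), 3 hearts per stage as points. The *Cnn1* points drop from 0.862 to 0.129 on average and the *Vtn* points climb from 0.027 to 0.252, while those of *Myh11* overlap between stages.

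Ratios between members were also taken within each heart and set side by side between stages. *Smtn* and *Cnn1* had near-equal levels at E18.5d (ratio 0.928, 0.976 and 1.02 in the 3 hearts), while *Smtn* was 1.61 to 2.37 times *Cnn1* at P1d and 8.69 to 9.71 times at P7d. The ratio of *Cnn1* to *Myh11* went from 2.13 ± 0.48 through 1.03 ± 0.16 to 0.442 ± 0.039, without overlap at either step. Among the pericyte genes, *Rgs5* was 1.40 ± 0.37 times *Pdgfrb* at E18.5d, 1.25 ± 0.13 times at P1d and 2.40 ± 0.14 times at P7d. *Vtn* was 0.039 ± 0.008 times *Pdgfrb* at E18.5d and 0.275 ± 0.032 times at P7d, and *Cspg4* went down from 0.697 ± 0.018 to 0.385 ± 0.025 of *Pdgfrb*. *Kcnj8* kept close to *Pdgfrb*, at 0.411 ± 0.025, 0.397 ± 0.034 and 0.441 ± 0.018 times its level, with overlapping hearts.

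Of 18 further genes listed as contractile genes of smooth muscle, 17 had enough signal to be tested and *Kcnmb1*, a potassium channel subunit, did not. The cell types that supplied their RNA were not separated in these whole hearts. Between E18.5d and P7d, 2 of the 17 were higher and 10 lower (median log2 change -0.35), and under median of ratios 5 were higher and 6 lower (median -0.16). Of all genes tested, 12.5% were higher and 36.9% lower as deposited, and 2907 and 2838 of 13599 under median of ratios. The regulatory light chain *Myl9*, the substrate of the *Mylk* kinase, had the largest fall, from 745 to 898 FPKM at E18.5d to 311 to 373 FPKM at P7d (log2 change -1.30, limma adjusted p = 9.24e-06). The calponin *Cnn2* (-1.002, adjusted p = 4.53e-05), *Actg2* (-0.97, adjusted p = 0.0133) and the essential light chain *Myl6* (-0.82) also fell. *Acta2*, smooth muscle α-actin, was at 734, 744 and 624 FPKM at E18.5d, at 692, 573 and 712 FPKM at P1d and at 489, 562 and 603 FPKM at P7d. Its log2 change to P7d of -0.35 passed the threshold as deposited (adjusted p = 0.0275) and under none of the other 4 scalings (-0.39 to -0.06). The 2 that rose were *Ppp1r12b*, a myosin phosphatase subunit (0.34), and *Des*, for desmin, which heart muscle also expresses (0.34). From E18.5d to P1d, 2 were higher and 7 lower, beside 18.4% and 27.6% of all genes. *Cnn2* (-0.72), *Cald1* (-0.56) and *Tpm2* (-0.55) led the falls whose hearts did not overlap. From P1d to P7d, 2 were higher and 5 lower, near the 15.5% and 28.6% of all genes, and nothing particular is read from these counts. *Lmod1*, for leiomodin, had the largest fall there (-0.79).

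Of 16 further pericyte genes, 7 were higher and 2 lower from E18.5d to P7d, with a median log2 change of 0.38. Under median of ratios 10 were higher and 0 lower. The shares of all genes were 12.5% higher and 36.9% lower as deposited, and 2907 and 2838 of 13599 under median of ratios. *Steap4*, a metalloreductase gene, rose most, from 3.01, 2.75 and 2.81 FPKM at E18.5d through 6.71, 8.38 and 6.58 FPKM at P1d to 18.4, 17.7 and 17.5 FPKM at P7d. The hearts of a stage were close together and no stages overlapped (log2 change 2.29, limma adjusted p = 2.56e-07). *Kcnj8* rose at both steps and by 0.82 in all (adjusted p = 0.000868). *Heyl*, a target of Notch signalling, was not called to P1d (adjusted p = 0.893) and then rose by 0.77 to P7d. *Notch3*, the Notch receptor of mural cells, rose from P1d to P7d by 0.77 (adjusted p = 0.00852), and its change from E18.5d to P7d was 0.49 with adjusted p = 0.0513. *Mcam* (-0.31) and *Gucy1b1* (-0.30) were the 2 that fell, and neither was called under median of ratios. From E18.5d to P1d, 4 were higher and 5 lower, beside 18.4% and 27.6% of all genes, and nothing particular is read from these counts. From P1d to P7d, 8 were higher and 1 lower, beside 15.5% and 28.6%. The 1 lower gene was *Art3*, an ADP-ribosyltransferase gene, which rose by 1.75 to P1d and fell by 1.27 to P7d, with 383, 528 and 257 FPKM in the P1d hearts against 106 to 158 FPKM in all others.

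Among 20 signals that recruit and settle mural cells, 3 rose and 7 fell from E18.5d to P7d (6 and 4 to P1d, 4 and 6 from P1d to P7d). Of all genes, 12.5% rose and 36.9% fell over the whole interval, 18.4% and 27.6% in the step to P1d, and 15.5% and 28.6% from P1d to P7d, and nothing particular to the list is read from its counts. *Pdgfb*, the endothelial ligand of PDGFRβ, was at 9.70, 9.97 and 9.52 FPKM at E18.5d, at 8.26, 7.05 and 8.79 FPKM at P1d and at 14.9, 13.9 and 14.7 FPKM at P7d. The P7d hearts were the highest and the P1d hearts the lowest, so receptor and ligand moved in opposite directions to P1d (ligand log2 change -0.25, limma adjusted p = 0.0261) and together to P7d (0.78, adjusted p = 8.99e-05). The first of these was not called under median of ratios (-0.19, adjusted p = 0.0751). *Angpt1*, the agonist of the endothelial receptor TIE2 that mural cells supply, rose to P1d by 0.38 and then fell by 1.54, with 2.18 to 2.62 FPKM left at P7d. *Angpt2*, its context-dependent antagonist, and *Pdgfc* fell over the whole interval (-0.86 and -0.76), and the receptor *Tie1* was higher (0.47). The Notch ligands *Jag1* and *Dll4* fell to P1d by 0.80 and 0.70 and rose again to P7d by 0.38 and 0.89.

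Of 18 transcription regulators of the mural lineage, 16 were tested, and 4 rose and 5 fell between E18.5d and P7d (3 and 2 by P1d, 3 and 4 from P1d to P7d), beside the same shares of all genes, and nothing particular is read from these counts either. *Srf* and its cofactor *Myocd*, which drive contractile genes through CArG boxes, were called in no comparison. *Myocd*, expressed in heart muscle as well, ran from 35.9 to 44.0 FPKM over the 9 hearts and had a log2 change to P7d of -0.16 (interval -0.32 to 0.00). *Klf4*, a repressor of that programme, rose by 0.71 to P1d and was 0.72 above E18.5d at P7d (limma adjusted p = 0.000275). *Foxs1*, a forkhead gene of pericytes, dipped by 0.34 to P1d and rose by 1.05 to P7d. *Tbx18*, of epicardium and mural progenitors, fell at both steps and by 0.83 in all, and *Gata6* rose by 0.52 to P1d and then fell by 1.001.

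Of 18 partners of the members, 6 were higher and 4 lower from E18.5d to P7d, 6 and 6 to P1d, and 5 and 3 from P1d to P7d. The shares of all genes were 12.5% and 36.9%, 18.4% and 27.6%, and 15.5% and 28.6%. Nothing particular to the list is read from its counts. The other channel genes rose beside *Abcc9*: *Kcnj11* by 0.72 and *Abcc8* by 0.70 (limma, adjusted p = 8.93e-05 and 0.000892). *Rgs2*, a relative of *Rgs5*, rose by 0.83 by P1d and was not called from P1d to P7d (adjusted p = 0.828). *Calm2*, of the 3 calmodulin genes that serve myosin light chain kinase, fell by 0.49. *Itgav*, the αv integrin that binds vitronectin, fell by 0.21 as deposited and was not called under the other scalings.

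The cell types around the vessels moved as well. Between E18.5d and P7d, when 12.5% of all genes were higher and 36.9% lower, 8 of 10 endothelial markers were higher and 1, *Emcn*, lower (median log2 change 0.45). Of 10 fibroblast markers 5 were higher and 0 lower (median 0.46), and their summed level was 2130 to 2237 FPKM at E18.5d and 2918 to 3004 FPKM at P7d. Of 10 cardiomyocyte markers 5 were higher and 3 lower, with sums of 25246 to 26323 FPKM and 25490 to 26686 FPKM. Their part in the members' changes was not tested.

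For each member called in at least 1 comparison, the 3 tested genes were found whose log2(FPKM + 1), centred on the mean of the 9 hearts, had the smallest root mean square difference from it. *Tagln* was followed most closely by *Acan* (0.13), *Lmod1* (0.15) and *Slc24a4* (0.16), and *Cnn1* by *Cited1* (0.19), *Mest* (0.19) and *Ppp1r1b* (0.20). Nearest to *Smtn* were *Nrp2* (0.07), *Pmepa1* (0.08) and *Scml4* (0.08), and nearest to *Rgs5* were *Mylk4* (0.12), *Hhatl* (0.15) and *Podn* (0.15). *Vtn* was followed by *Rxrg* (0.22), *Hmcn2* (0.24) and *Hcn2* (0.25). *Abcc9* ran closest to the cardiomyocyte light chain *Myl3* (0.06), *Abhd2* (0.06) and *Etfb* (0.07), *Pdgfrb* to *Wnt9a* (0.06), *Tsc22d4* (0.07) and *Cers4* (0.08), and *Cspg4* to *Bcam* (0.03), *Selenon* (0.05) and *Plekhb2* (0.05). The 9 hearts fall into 3 stages, so the measure mainly reads the shape over 3 levels.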

How the data were processed

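RNA of 9 hearts of C57BL/6J mice was sequenced from NEBNext Ultra RNA libraries, 3 hearts at each of 3 stages. FPKM values with 2 decimals for 48820 genes were deposited by the authors, a column per heart. The submitters' processing notes name STAR and GRCm38/mm10, while the counting tool and annotation are not given in the sources used here. Samples were grouped by the stage in their labels, and no heart was left out.

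Names and loci came from GENCODE M21 of GRCm38 by gene identifier (48058 found), and upstream sequences from RefSeq on GRCm38.p6. Of the genes, 13618 had a mean of at least 1 FPKM and were fitted as log2(FPKM + 1), pseudocount 1, with limma 3.58.1 in R 4.3.3 (eBayes with trend, all stages in 1 fit, 6 residual degrees of freedom, no covariate), with Benjamini-Hochberg adjustment over all genes tested and a threshold of 0.05. Ratios, fragments and figures were made in Python 3.11.15 (numpy 2.4.6, pandas 2.3.3, scipy 1.17.1, matplotlib 3.10.9). Depth was fitted from low values, of which 83.3% to 88.9% came out as whole fragments within 0.1, and fit and depth were checked on simulated data. Intervals are 95% intervals of the difference between stage means and rest on limma's moderated estimate of the spread between hearts. The column sums ran from 1347981 to 1794160 FPKM, with 53.3% to 62.3% in 5 small structural RNAs.

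The members and lists were chosen with earlier results of these data known. Named beside the members were, for each related list, the up to 3 largest changes in each direction among called genes whose hearts do not overlap, with *Acta2*, *Kcnj8*, *Notch3*, *Pdgfb*, *Myocd* and *Srf*. The rule did not pick *Myl6*, *Kcnmb1* and *Emcn*, which were named after their values were seen. Of the genes it picked, 1 is not reported here. Alternatives were the pseudocount, the filter, the scaling, the eBayes trend, the stages in the fit, a replicate block, a covariate for *Xist* above 1 FPKM, a minimum log2 change of 1 and leaving out each heart. Leaving out the 3 hearts with *Scgb3a2* above 10 FPKM, and an equal sum of protein-coding nuclear genes, were chosen after seeing the data.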

Additional observations from a re-analysis of the deposited data

How the results depend on the processing

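Each of 30 member results (10 genes, 3 comparisons) was recomputed under up to 21 alternatives. Of 627 values, 566 had the direction and call reported, 30 lost the call, 9 gained one and 22 changed sign, and 12 of the 30 results were unaltered in all. *Vtn* was not tested at a mean of at least 5 FPKM. All sign changes were in results that had not been called. From E18.5d to P1d, *Tagln* was 0.027 under median of ratios and 0.30 without the 3 hearts with airway RNA (chosen after seeing the data), where *Myh11* was 0.14; leaving out each heart in turn gave *Tagln* -0.25 to 0.20. From P1d to P7d, *Mylk* was 0.062 at equal sums, 0.044 under median of ratios, 0.0023 under quantiles, 0.031 with the *Xist* covariate and 0.082 at equal sums of protein-coding nuclear genes, and -0.20 to 0.071 leaving out each heart, where *Myh11* was -0.069 to 0.28. From E18.5d to P7d, *Myh11* was 0.027, 0.0073 and 0.015 under median of ratios, quantiles and protein-coding sums, 0.32 without the airway hearts and -0.37 to 0.095 leaving out each heart. There *Cspg4* was 0.096, 0.070, 0.083 and 0.012 under the first 4 of these.

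The number of members higher at P1d than at E18.5d was 5 under quantiles, against 3, with *Mylk* and *Rgs5* added. Without the airway hearts, which leaves 1 heart at E18.5d whose spread is taken to be like the others', the number lower was 1 in place of 3 from E18.5d to P1d, 1 in place of 2 from P1d to P7d and 1 in place of 2 from E18.5d to P7d. From P1d to P7d it was also 1 with no filter (more genes tested) and with the *Xist* covariate, and 1 to 2 leaving out each heart, with *Tagln* lost without P1d replicate 1, P1d replicate 2 or P7d replicate 2 (adjusted p = 0.0612 to 0.0647). From E18.5d to P7d it was 1 to 2, with *Tagln* lost without E18.5d replicate 2 (limma adjusted p = 0.0514). A required log2 change of 1 left 0 higher and 1 lower, 3 higher and 0 lower, and 2 higher and 1 lower in the 3 comparisons. The cause of the other changes was not tested. The changes of the within-heart ratios from E18.5d to P7d moved by less than the spread when *Pecam1* alone was the divisor, and the steps to and from P1d were not recomputed this way.

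Deviations from the stage mean of same-numbered hearts correlated from -0.055 to 0.112 over 9 pairs (median 0.047). Those of other pairs correlated from -0.182 to 0.129 (median -0.022). With so few pairs, these values cannot tell whether the replicate numbers pair the hearts. The replicate block changed no member call, with 3 higher and 3 lower, 6 and 2, and 5 and 2, and 1706 higher and 4961 lower genes in all from E18.5d to P7d. Depth limits *Vtn* most, at 36 fragments in its lowest heart.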
